A study of Mus musculus with 21 samples.

Results

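The stretch of mouse chromosome 9 around Trim71 was followed across mouse embryonic stem cells with edited Trim71, with edited Ago2 or with a blocked Argonaute partner. It was described through 10 genes of the count table: Trim71, Ccr4, Cnot10, Glb1, Crtap, Susd5, Dync1li1, Cmtm6, Cmtm7 and Cmtm8. They were taken by gene symbol from the 22512 genes of the table, and all 10 were found. The genes had been picked because Ccr4, next to Trim71, was about 100.2-fold higher in the Trim71-edited line, so the comparisons of the Trim71-edited lines with their controls are given below as descriptions without a test.

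RNA was sequenced from 7 groups of 3 libraries, which the study's design text calls biological replicates. All cells descended from 1 parental embryonic stem line of 129S6/SvEvTac background that stably held a GFP reporter bearing binding sites for Trim71, plus a Cas9 gene coupled to blasticidin resistance. They were cultured on gelatin with serum and LIF. Experiment 1 held the untransfected parental line (W), a Trim71-/- line (Trim71KO) and an Ago2-/- line (Ago2KO). Experiment 2 held parental cells given a plasmid for the T6B peptide fused to mCherry (T6B_WT) or its mutant (T6B_MUT), and the Trim71-/- and Ago2-/- lines with an empty plasmid (Trim71KO_empty and Ago2KO_empty). T6B is an Argonaute-binding fragment of TNRC6B, a protein that Argonaute recruits to silence mRNAs. Unedited cells with an empty plasmid were not part of the design, so T6B_MUT served as control in Experiment 2, where the edited lines differ from it in plasmid as well as genotype. The labels do not give the number of clones behind an edited line. The edited lines of Experiments 1 and 2 may be the same, so their agreement is not taken as that of independent lines.

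Library totals were 29.6 to 50.8 M counts in Experiment 1 and 33.9 to 57.9 M in Experiment 2. The first principal component, with 38.7% of the variance, separated the experiments, and groups were tested only within an experiment. Levels are given as CPM, which are counts scaled to library size. Ago2 mRNA stood at 39.8 to 43.6 CPM in Ago2KO and 134.3 to 152.9 in W. It stood at 87.4, 166.6 and 45.6 CPM in the libraries labelled Ago2KO_empty and at 111.6 to 142.9 in T6B_MUT, so 1 of these 3 libraries lay above every control and the label is not borne out by the mRNA in that library. The summed level of 7 embryonic stem cell markers (Pou5f1, Nanog, Sox2, Zfp42, Esrrb, Dppa5a and Tdgf1) was 3691 to 4890 CPM over all libraries, and each of the 7 was in the table. Their sum was 3964 to 4169 in W, 4602 to 4890 in Trim71KO and 4174 to 4298 in Ago2KO. It was 4002 to 4145 in T6B_MUT, 3919 to 4150 in T6B_WT and 4532 to 4745 in Trim71KO_empty. The libraries labelled Ago2KO_empty had 3691 to 4138. The sum was thus higher in both Trim71-edited groups than in their controls, without overlap. The 7 markers did not all move alike. Nanog had log2 fold changes of 0.69 in Trim71KO and 0.62 in Trim71KO_empty, Zfp42 had 0.58 and 0.67, and Esrrb had 0.58 and 0.30. Sox2 had 0.10 and 0.24, Tdgf1 had 0.23 and 0.02, Pou5f1 had -0.02 and -0.03, and Dppa5a had -0.45 and -0.63. The part of this shift in the results below was not tested. In bulk RNA, fewer cells of a kind and less RNA per cell cannot be told apart.

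TRIM71 is a TRIM-NHL protein that binds RNA and represses target mRNAs in early embryonic cells, where it is best known as a regulator of developmental timing. Its neighbours belong to various pathways. Ccr4 encodes a chemokine receptor of T helper and regulatory T cells that responds to the ligands Ccl17 and Ccl22, and it shares nothing but a name with the deadenylase of the CCR4-NOT complex. Cnot10, on the other side of Trim71, is a subunit of that complex, which shortens poly(A) tails and is recruited by TNRC6 proteins.

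On GRCm38, the genes spanned chr9:114057140-114844156. In order along the chromosome they were Susd5, Crtap, Glb1, Ccr4, Trim71, Cnot10, Dync1li1, Cmtm6, Cmtm7 and Cmtm8. Trim71 (ENSMUSG00000079259, chr9:114507133-114564369) and Ccr4 (ENSMUSG00000047898, chr9:114490316-114504916) lie on the minus strand, with Ccr4 downstream of the 3′ end of Trim71. The annotated gap between them is 2216 bases, and Cnot10 (ENSMUSG00000056167, chr9:114585878-114640184, minus strand) lies 21508 bases upstream of Trim71. The gap to Ccr4 is measured to the first exon (chr9:114504809-114504916, noncoding) of 1 of its 3 annotated transcripts. The other two begin 10570 and 11094 bases from the 3′ end of Trim71, and the exon with the coding sequence lies 14077 bases away in all 3 transcripts. Counts were given per gene and do not tell these transcripts apart.

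The RefSeq promoters of Ccr4 and Trim71 are shown because the neighbours stood near opposite ends of the range of the 10 genes in unedited cells. Each is the 250 bases before the start that RefSeq gives for the gene, read 5′ to 3′ on the minus strand of GRCm38.p6, with CG dinucleotides in capitals. The Ccr4 window is chr9:114496545-114496794, and the Trim71 window is chr9:114564370-114564619. The Ccr4 window lies within the annotated gene, at the first exon (chr9:114496498-114496562) of the transcript that begins 10570 bases from Trim71, and not at the outlying exon that sets the gap of 2216 bases.
Ccr4 promoter: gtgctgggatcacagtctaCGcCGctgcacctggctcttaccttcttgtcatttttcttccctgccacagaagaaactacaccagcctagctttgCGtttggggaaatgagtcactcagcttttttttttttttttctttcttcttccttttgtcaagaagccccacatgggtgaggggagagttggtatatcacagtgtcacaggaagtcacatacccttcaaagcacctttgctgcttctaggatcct
Trim71 promoter: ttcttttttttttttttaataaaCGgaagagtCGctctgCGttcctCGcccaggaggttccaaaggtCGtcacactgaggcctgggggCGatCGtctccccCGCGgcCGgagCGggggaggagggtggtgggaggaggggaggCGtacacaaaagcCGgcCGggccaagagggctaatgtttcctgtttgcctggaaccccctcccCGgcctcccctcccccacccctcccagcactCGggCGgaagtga
The motif searched was CG, which reads the same on both strands. The Ccr4 window held 3 and the Trim71 window 17, against a median of 6 in 32851 mouse promoters of the same length. Of those promoters, 37.8% held no more CG than that of Ccr4 and 78.3% no more than that of Trim71. All 10 genes matched a RefSeq promoter, and the other 8 windows held between 6 (Glb1) and 27 (Dync1li1). The Ccr4 window thus had the fewest of the 10. These are descriptions of the sequence.

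Trim71 mRNA was lower in both Trim71-edited groups but was still present in them. The CPM in W were 602.5, 602.3 and 618.4, and in Trim71KO 412.2, 415.8 and 459.0. In T6B_MUT they were 481.6, 492.7 and 503.1, and in Trim71KO_empty 405.2, 408.7 and 392.6. The edited and control libraries did not overlap in either experiment. The log2 fold change was -0.50 (SE 0.05) in Trim71KO and -0.29 (SE 0.08) in Trim71KO_empty. Of the exonic bases of Trim71, 27.5% are coding, and reads at the edited site were not looked at here, so this level of mRNA is no check of the edit.

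Ccr4 went the other way by a large step. It was counted 9, 16 and 26 times in the W libraries and 1388, 1296 and 1769 times in Trim71KO. In T6B_MUT it was counted 15, 15 and 22 times and in Trim71KO_empty 1433, 1318 and 1145 times. Scaled to depth, Ccr4 stood at 34.8, 36.0 and 36.8 CPM in Trim71KO and 36.9, 38.5 and 32.0 in Trim71KO_empty, while every library of the other 5 groups lay between 0.186 and 0.956. The groups were far apart, and the Trim71-edited groups of the 2 experiments, which may be 1 line, stood at nearly the same level. The log2 fold change was 6.65 (SE 0.17) in Trim71KO and 6.68 (SE 0.15) in Trim71KO_empty, or 100.2-fold and 102.6-fold. The largest log2 fold change of any tested gene was 7.70 in the first comparison and 7.84 in the second.

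**Figure D1:**
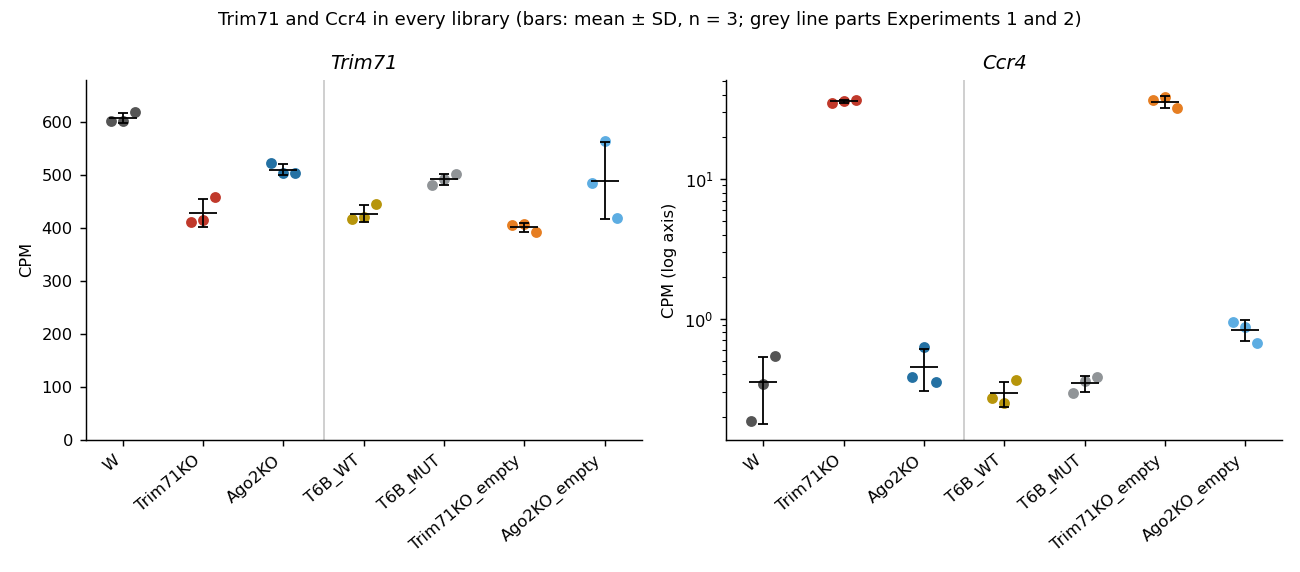
Levels of Trim71 (left, linear axis) and Ccr4 (right, log axis) in CPM for each of the 21 libraries, as points, with mean and SD of each group of 3. Ccr4 lies between 32.0 and 38.5 CPM in the Trim71-edited libraries and below 1 CPM in the rest, while Trim71 itself is at least 392.6 CPM in all.

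Among the 7 groups, Trim71 mRNA was ordered W, Ago2KO, Trim71KO in Experiment 1, with means of 607.7 ± 9.26, 510.4 ± 10.4 and 429.0 ± 26.0 CPM (SD, n = 3) and no overlap between neighbours. In Experiment 2 the order was T6B_MUT, Ago2KO_empty, T6B_WT, Trim71KO_empty, with means of 492.5 ± 10.8, 489.7 ± 72.6, 427.6 ± 15.4 and 402.2 ± 8.47 CPM (SD, n = 3). Of these, only T6B_WT and Trim71KO_empty were neighbours without overlap. The wide SD belonged to the libraries labelled Ago2KO_empty, at 485.7, 564.2 and 419.3 CPM. Replicate 2 had the highest and replicate 3 the lowest Trim71 of the 3, as for the Ago2 levels given above.

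For Ccr4 the order in Experiment 1 was Trim71KO at 35.9 ± 0.988, Ago2KO at 0.455 ± 0.150 and W at 0.356 ± 0.178 CPM (SD, n = 3), and Ago2KO and W overlapped. In Experiment 2 it was Trim71KO_empty at 35.8 ± 3.40, Ago2KO_empty at 0.836 ± 0.145, T6B_MUT at 0.345 ± 0.0451 and T6B_WT at 0.294 ± 0.0615 CPM (SD, n = 3). The T6B_MUT and T6B_WT libraries overlapped, and the other neighbours did not.

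The deposited RPKM, which are per length, allow levels to be compared between genes. In W, Trim71 was the highest of the 10 at 66.0 ± 1.13 RPKM, followed by Dync1li1 at 30.1 ± 0.720 and Cmtm6 at 22.7 ± 0.560 (SD, n = 3). Cnot10, Crtap, Cmtm7 and Glb1 followed at 17.9, 16.7, 10.3 and 7.70 RPKM. Susd5 at 0.329 RPKM, Ccr4 at 0.117 and Cmtm8 at 0.0748 were barely detected. In Trim71KO, Ccr4 stood at 11.8 ± 0.342 RPKM (SD, n = 3), above Glb1 at 8.18 and below Cmtm7 at 14.6. Ccr4 was thus 25.2% of Trim71 by RPKM in Trim71KO and 26.8% in Trim71KO_empty. The share was 0.177% in W, 0.211% in T6B_MUT, 0.207% in T6B_WT, 0.269% in Ago2KO and 0.515% in the libraries labelled Ago2KO_empty. Trim71 remained the highest of the 10 by mean RPKM in every group.

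**Figure D2:**
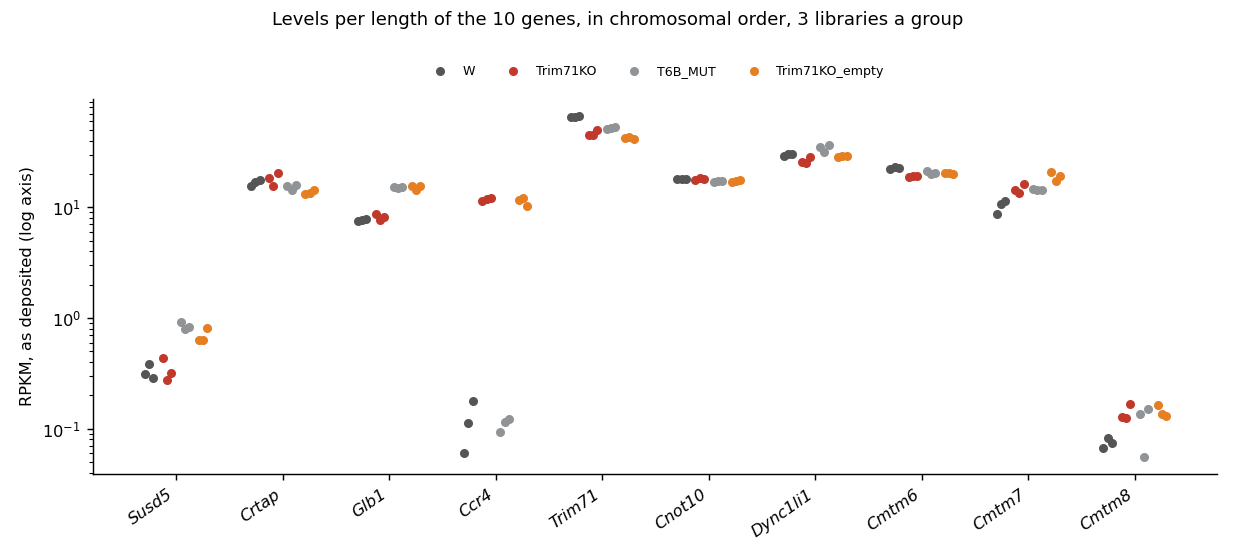
Deposited RPKM (log axis) of the 10 genes in chromosomal order, 1 point per library, for the 2 Trim71-edited groups and their controls W and T6B_MUT. Ccr4 moves from 0.117 RPKM in W to 11.8 in Trim71KO, among the widely expressed genes, whereas the points of Cnot10 stay close together.

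The other 8 genes showed nothing of that size. By the rule for a call, an adjusted p under 0.05 over all genes tested, 6 of the 10 genes were called in Trim71KO against W, where 32.6% of 21210 genes were. Ccr4, Cmtm7 and Cmtm8 were higher and Trim71, Dync1li1 and Cmtm6 lower. In Trim71KO_empty against T6B_MUT, 4 of 10 were called, where 27.8% of 21505 genes were: Ccr4 and Cmtm7 higher, Trim71 and Dync1li1 lower. The median log2 fold change of the 10 was 0.08 and -0.01, and over all genes it was -0.00074 and 0.0025. The genes were picked on this contrast, so these counts are a description only, and nothing is read from them.

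Cmtm7 encodes a MARVEL-domain membrane protein of the CKLF-like family (ENSMUSG00000032436, chr9:114756836-114781856, minus strand). Its CPM were 29.9, 36.6 and 39.1 in W and 48.9, 45.6 and 54.8 in Trim71KO. They were 50.7, 50.6 and 50.4 in T6B_MUT and 72.7, 61.1 and 66.6 in Trim71KO_empty. Every edited library lay above its controls, with log2 fold changes of 0.50 (SE 0.10) and 0.40 (SE 0.07). The antisense gene Gm9888 overlaps Cmtm7. It had 1112 counts over all libraries against 44750 for Cmtm7, and whether strand was used in counting is not given in the sources used here.

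Dync1li1, the first light intermediate chain of cytoplasmic dynein (ENSMUSG00000032435, chr9:114688790-114724302, plus strand), was lower in both edited groups. Its CPM were 112.2, 116.3 and 116.1 in W and 98.3, 96.1 and 108.4 in Trim71KO. They were 136.3, 123.2 and 143.7 in T6B_MUT and 111.4, 114.6 and 113.3 in Trim71KO_empty. The groups did not overlap, and the log2 fold changes were -0.19 (SE 0.05) and -0.25 (SE 0.06).

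Cmtm6, a relative of Cmtm7 that stabilises the checkpoint ligand PD-L1 at the cell surface (ENSMUSG00000032434, chr9:114731116-114749344, plus strand), was lower in Trim71KO and level with its control in Trim71KO_empty. Its CPM were 75.4, 78.6 and 77.6 in W and 63.7, 65.2 and 65.4 in Trim71KO, without overlap, a log2 fold change of -0.25 (SE 0.05). In Experiment 2 its T6B_MUT libraries at 73.9, 70.5 and 71.2 CPM overlapped those of Trim71KO_empty at 71.8, 71.4 and 69.6, with a log2 fold change of -0.02 (SE 0.06). The difference between the experiments was not tested. Cmtm8 (ENSMUSG00000041012, chr9:114789345-114844156, minus strand), the third member of the cluster, had 8 to 30 counts in a library. Its 11, 13 and 12 counts in W and 17, 15 and 27 in Trim71KO gave a log2 fold change of 0.91 (SE 0.30), and in Experiment 2 the change was 0.29 (SE 0.35) with overlap.

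Cnot10, the closest gene upstream of Trim71, barely moved. Its CPM were 119.0, 118.6 and 118.4 in W and 117.6, 121.6 and 119.9 in Trim71KO, which overlap. The log2 fold change was 0.01 (SE 0.04), and 0.0037 (SE 0.06) in Trim71KO_empty. Glb1, the lysosomal beta-galactosidase (ENSMUSG00000045594, chr9:114401076-114474898, plus strand), lies 32234 bases from Trim71 beyond Ccr4. Its W libraries at 22.4 to 23.4 CPM overlapped those of Trim71KO at 22.8 to 25.8, with a log2 fold change of 0.09 (SE 0.06), and it was 0.02 (SE 0.06) in Trim71KO_empty. The 2 genes that flank the pair of Trim71 and Ccr4 thus overlapped with their controls in both experiments.

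Crtap, a subunit of the collagen prolyl 3-hydroxylation complex (ENSMUSG00000032431, chr9:114375134-114390675, minus strand), had a log2 fold change of 0.11 (SE 0.09) in Trim71KO and -0.16 (SE 0.07) in Trim71KO_empty. In the second comparison the edited libraries at 24.0, 24.1 and 25.8 CPM lay below the controls at 28.1, 26.0 and 28.3. Susd5, a sushi domain protein at the far end (ENSMUSG00000086596, chr9:114057140-114098728, plus strand), had 40 to 196 counts in a library. Its log2 fold changes were 0.07 (SE 0.20) and -0.29 (SE 0.13), with overlapping libraries in both comparisons.

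**Figure D3:**
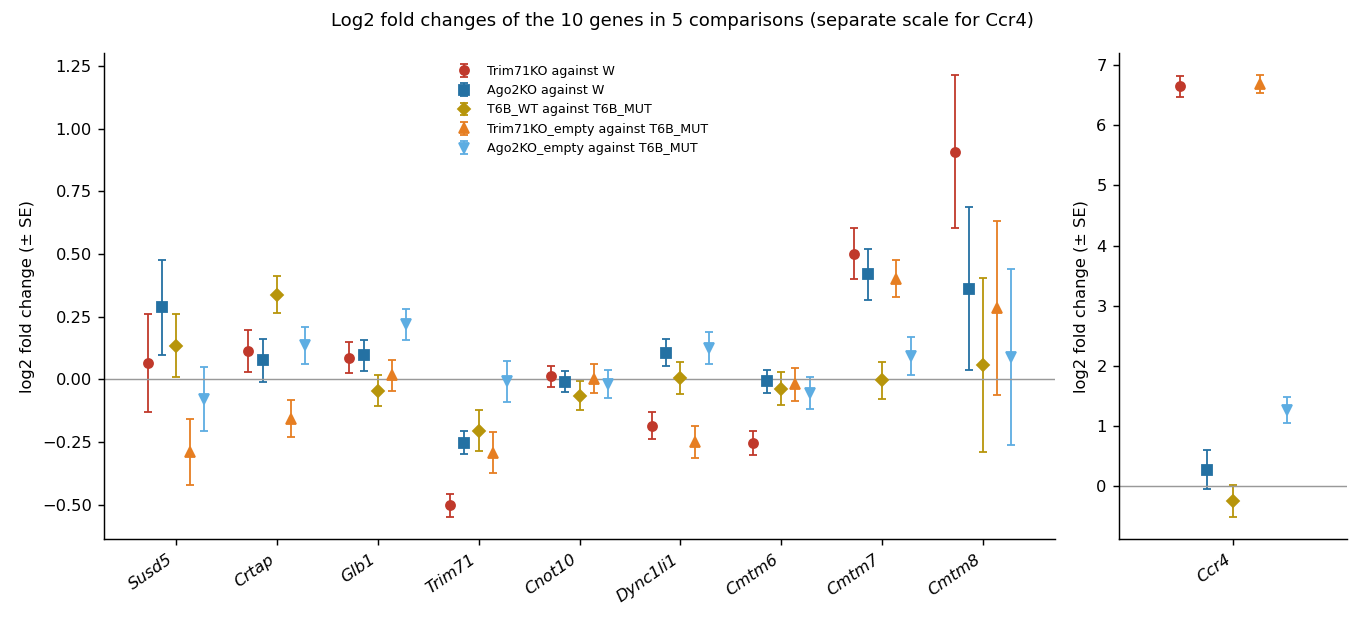
Log2 fold changes with standard errors for the 10 genes in 5 comparisons, with a separate vertical scale for Ccr4 on the right. Ccr4 stands at 6.65 and 6.68 in the Trim71-edited lines and at 1.27 in the libraries labelled Ago2KO_empty, and each of the other 9 genes lies between -0.50 and 0.91.

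In the comparisons without a Trim71-edited group, Trim71, Cmtm7, Crtap, Ccr4 and Glb1 were each called once. W and T6B_MUT were also the controls for the rise of Ccr4 on which the genes were picked. Tests of Ccr4 against them are therefore not independent of that choice. In Ago2KO against W, Trim71 fell and Cmtm7 rose. Trim71 was at 522.3, 503.8 and 504.9 CPM in Ago2KO and at 602.5, 602.3 and 618.4 in W, and no libraries overlapped. Trim71 thus changed by -0.25 on the log2 scale with an SE of 0.05, and the edgeR quasi-likelihood test with Benjamini-Hochberg adjustment gave an adjusted p of 0.00161. Cmtm7 stood at 50.9, 42.6 and 47.4 CPM, above all W libraries. It changed by 0.42 on the log2 scale with an SE of 0.10, at an adjusted p of 0.0138 by the same edgeR test. Over the 13 alternatives run for Cmtm7, the adjusted p was 0.000756 to 0.0620 (edgeR or DESeq2), and the call was lost without Ago2KO replicate 1. Ccr4 was counted 18, 19 and 18 times in Ago2KO and 9, 16 and 26 times in W. Its change of 0.28 on the log2 scale (SE 0.32) had an adjusted p of 0.617 in edgeR, so no difference was detectable at this depth. The other 7 genes, also not called, changed by -0.01 (Cnot10) to 0.36 (Cmtm8). The 2 of 10 genes called are 20% against 18.0% of all genes tested, so the share was near the background. Trim71KO and Ago2KO share the W libraries.

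The summed level of markers of primitive endoderm, another cell type such cultures can hold, moved with these groups. All 6 markers (Gata4, Gata6, Sox17, Sox7, Foxa2 and Pdgfra) were in the table, and their summed level was 30.0 to 32.1 CPM in W, 8.52 to 9.89 in Ago2KO and 4.72 to 4.86 in Trim71KO. In Experiment 2 it was 22.3 to 23.3 in T6B_MUT, 18.6 to 21.5 in T6B_WT, 9.29 to 10.7 in Trim71KO_empty and 15.2 to 21.4 in the libraries labelled Ago2KO_empty. The markers did not all move alike. Gata4, Gata6, Sox17 and Pdgfra were lower in both Trim71-edited groups, at log2 fold changes of -4.28 to -2.72 in Trim71KO and -2.04 to -1.17 in Trim71KO_empty. Sox7 stood at -0.16 (SE 0.19) in Trim71KO and was higher in Trim71KO_empty at 0.83 (SE 0.21). Foxa2 stood at -1.72 (SE 0.33) and -0.19 (SE 0.44). The part of the primitive endoderm markers in the results for Trim71, Cmtm7, Ccr4 and Dync1li1 was not tested. Of 5 fibroblast markers, Col1a1, Col1a2 and Thy1 were in the table. Their sum was 7.15 to 7.68 CPM in W, 10.47 to 11.6 in Trim71KO and 7.20 to 7.82 in Ago2KO, and in Experiment 2 it was 4.04 to 4.68 in T6B_MUT, 8.79 to 9.38 in Trim71KO_empty, 2.73 to 3.43 in T6B_WT and 4.36 to 5.26 in the libraries labelled Ago2KO_empty. The sum was thus higher in both Trim71-edited groups without overlap. Thy1 had log2 fold changes of 0.68 (SE 0.09) and 1.21 (SE 0.11) there, and Col1a1 had -0.64 (SE 0.23) and 0.11 (SE 0.28). The part of these markers in the results was not tested.

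In T6B_WT against T6B_MUT, Crtap rose. Its CPM were 33.6, 37.95 and 32.6 with T6B_WT and 28.1, 26.0 and 28.3 with T6B_MUT, without overlap. Crtap was 1.26-fold higher, 0.34 on the log2 scale with an SE of 0.07, at an adjusted p of 0.00350 by edgeR's quasi-likelihood test. It was called under each of the 13 alternatives, at adjusted p up to 0.0471. The other 9 genes were not called, at log2 fold changes of -0.24 (Ccr4) to 0.13 (Susd5), so 1 of 10 stood against 16.0% of all genes tested. Trim71 was lower in all 3 T6B_WT libraries, at 416.5, 421.0 and 445.1 CPM, but its change of -0.20 on the log2 scale (SE 0.08) missed the threshold at an adjusted p of 0.102 in edgeR. It passed when only the 2 groups were fitted, at an adjusted p of 0.00355, and when all 21 libraries were fitted together, at 0.0299, and its adjusted p reached 0.203 among the alternatives (edgeR or DESeq2). Ccr4 stood at 0.270, 0.248 and 0.364 CPM in T6B_WT, overlapping T6B_MUT. Its change of -0.24 on the log2 scale had an SE of 0.27 and an adjusted p of 0.659 in edgeR.

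In the libraries labelled Ago2KO_empty, Ccr4 and Glb1 were higher than in T6B_MUT. Ccr4 was counted 39, 32 and 26 times against 15, 15 and 22, which was 0.956, 0.876 and 0.675 CPM against 0.294, 0.360 and 0.381. All 3 libraries lay above the controls, and Ccr4 was 2.41-fold higher, 1.27 on the log2 scale with an SE of 0.22, at an adjusted p of 3.00e-04 by edgeR's quasi-likelihood test. The call held under each of the 13 alternatives, with log2 fold changes of 1.14 to 1.38 and adjusted p of 6.03e-05 to 0.00568 in edgeR or DESeq2. The same libraries had Ago2 at 87.4, 166.6 and 45.6 CPM, and the part of the Ago2 level in this result was not tested. These libraries remained below 1 CPM, where the Trim71-edited libraries stood at 32.0 to 38.5. The T6B_MUT libraries are also the controls of Trim71KO_empty, so this test of Ccr4 was not independent of the choice of genes.

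Glb1 stood at 54.3, 50.3 and 56.1 CPM in the libraries labelled Ago2KO_empty and at 46.3, 45.8 and 45.9 in T6B_MUT, without overlap. The change of 0.22 on the log2 scale had an SE of 0.06 and an adjusted p of 0.0136 in edgeR. The call was lost when any 1 of T6B_MUT replicates 1, 2 and 3 or Ago2KO_empty replicates 1 and 3 was left out, at adjusted p of 0.0679 to 0.0864 (edgeR), and over all alternatives the adjusted p began at 0.00978. Tmppe lies on the same strand within Glb1 and had 11333 counts in all against 33124 for Glb1, so reads of the 2 could be split between them. The other 8 genes were not called, at log2 fold changes of -0.08 (Susd5) to 0.14 (Crtap). The 2 of 10 genes called were 20% against 28.8% of all genes tested. T6B_WT, Trim71KO_empty and Ago2KO_empty share the T6B_MUT libraries as controls.

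The change in Ago2KO against W was compared with that in the libraries labelled Ago2KO_empty against T6B_MUT, by the difference of the log2 fold changes. Ago2 mRNA itself changed by -1.76 (SE 0.07, adjusted p = 1.30e-09) in the first and by -0.30 (SE 0.38, adjusted p = 0.601, edgeR) in the second, where the label is not borne out in 1 library. None of the 10 genes differed by the edgeR quasi-likelihood test at an adjusted p under 0.05, where 2.13% of 22258 genes did, and DESeq2 called 0. An unadjusted p under 0.05 in edgeR was found for 3 of the 10. The share of all genes at that unadjusted threshold was not counted, so nothing is read from this number. Ccr4 differed by -0.98 (SE 0.39, adjusted p = 0.216 in edgeR), Cmtm7 by 0.33 (SE 0.13, adjusted p = 0.197) and Trim71 by -0.23 (SE 0.10, adjusted p = 0.243). Without Ago2KO_empty replicate 3, the difference for Trim71 was -0.32 with an adjusted p of 0.0141 (edgeR), the lowest of its alternatives, which reached 0.539. A call in 1 experiment alone therefore does not show that the gene differed between these comparisons.

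**Figure D4:**
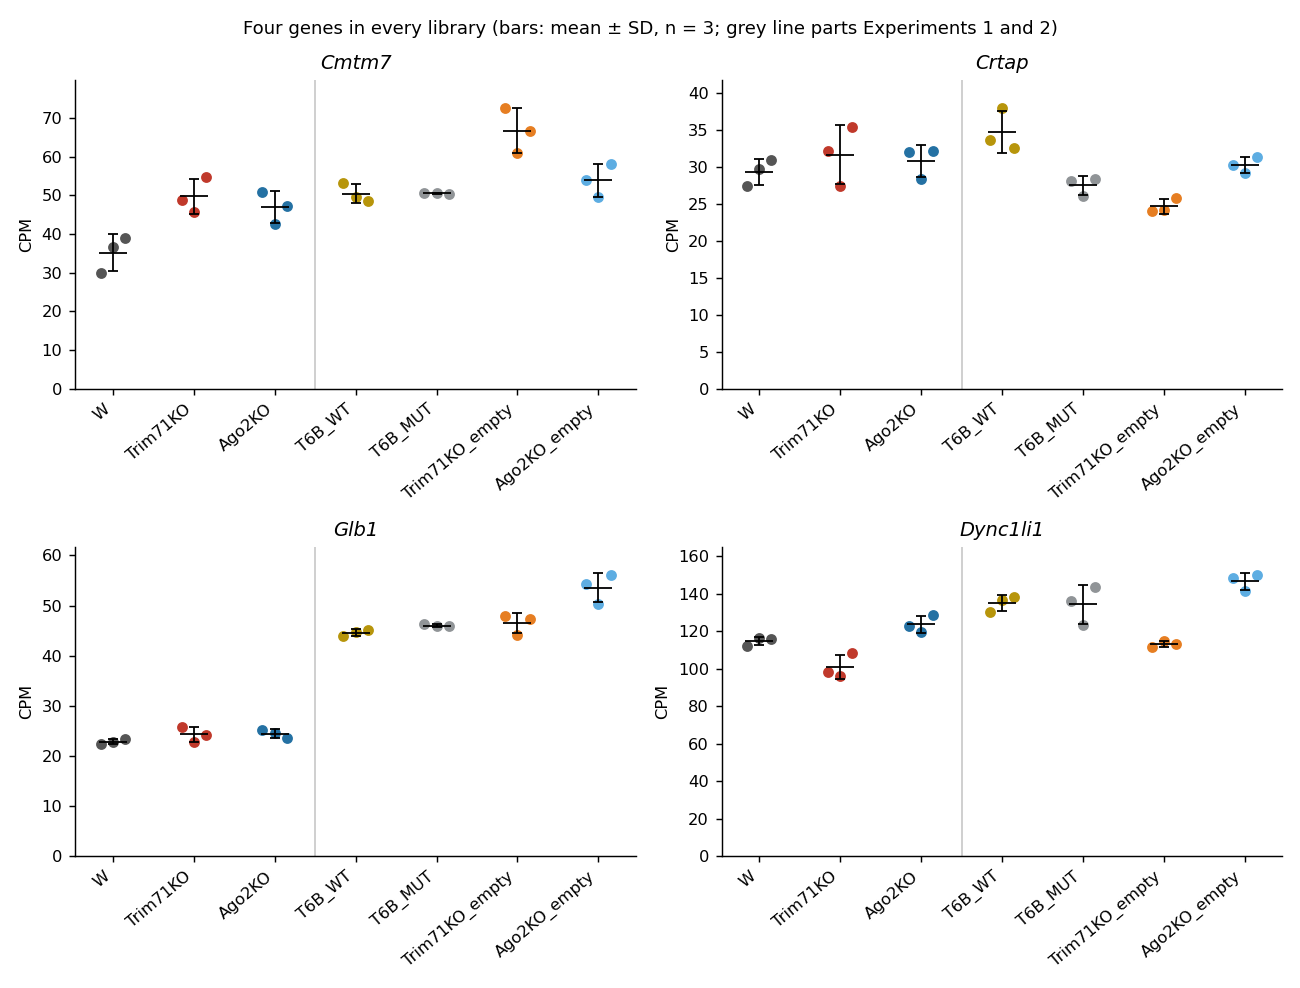
CPM of Cmtm7, Crtap, Glb1 and Dync1li1 in each of the 21 libraries, as points, with mean and SD of each group of 3 on axes that start at 0. Crtap in T6B_WT lies at 32.6 to 37.95 CPM against 26.0 to 28.3 in T6B_MUT, and Dync1li1 in Trim71KO_empty at 111.4 to 114.6 against 123.2 to 143.7.

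The neighbourhood was widened to 1000 kb on either side of Trim71, where 27 of 43 annotated genes were in the table. In the Trim71-edited lines, Ccr4 was the only gene of the 27 whose log2 fold change reached 1 in size. In Trim71KO against W, 15 of the 26 tested genes (57.7%) were called, 9 higher and 6 lower, with a median of 0.08, where 33.1% of the tested genes of chromosome 9 and 32.6% of all genes were. In Trim71KO_empty it was 10 of 27 (37.0%), 7 higher and 3 lower, with a median of 0.04, where 28.6% and 27.8% were. These counts are descriptions too, since they come from the contrast on which the genes were picked. The 1160 tested genes of chromosome 9 had a median of 0.0062 in the first comparison and the 1171 in the second 0.0059, near the medians of all genes given above.

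Smaller differences were seen farther out in both Trim71-edited groups. Pdcd6ip, which encodes the ESCRT-associated protein ALIX, had log2 fold changes of 0.43 (SE 0.05) and 0.53 (SE 0.08), and Clasp2, which encodes a microtubule-binding protein, 0.42 (SE 0.05) and 0.41 (SE 0.07). Gpd1l, a relative of glycerol-3-phosphate dehydrogenase, had -0.20 (SE 0.06) and -0.48 (SE 0.08). C130032M10Rik, which lies within Trim71 on the opposite strand, had 165 counts over all libraries against 433400 for Trim71, and it was tested only in Experiment 2.

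**Figure D5:**
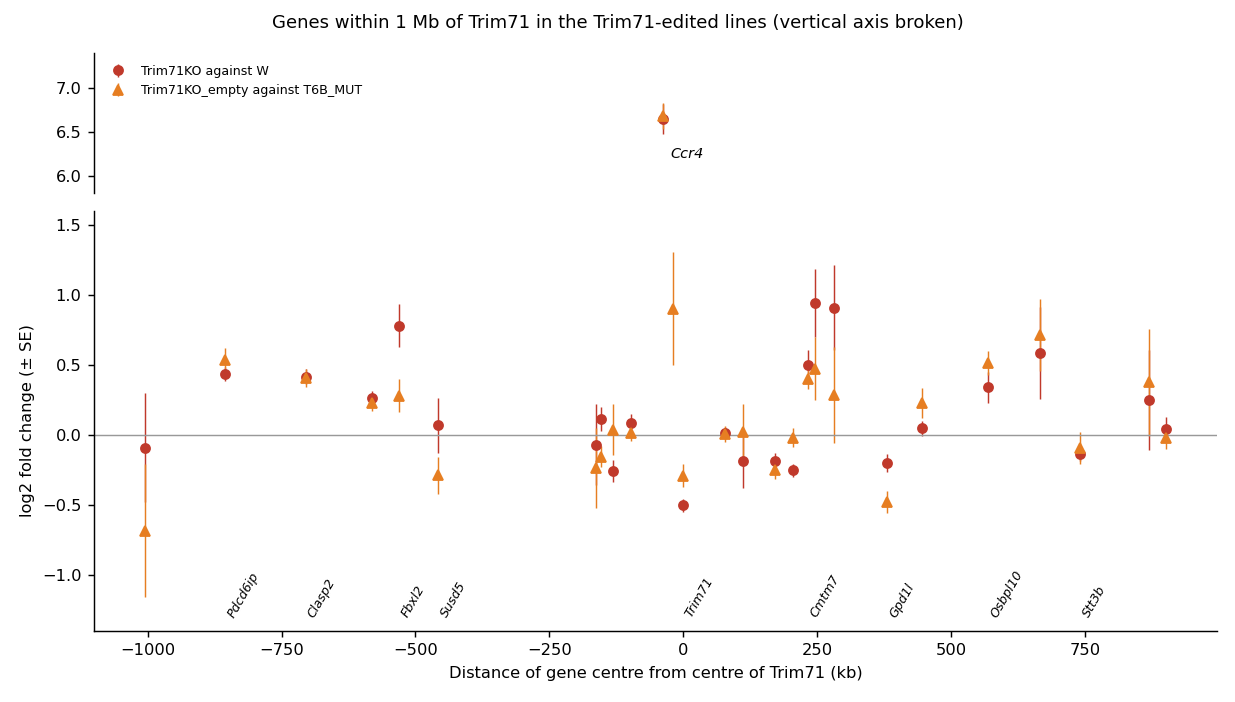
Log2 fold change with standard error of the genes within 1000 kb of Trim71, by distance of the gene's centre from the centre of Trim71 in kb, in the 2 comparisons of the Trim71-edited lines. The vertical axis is broken: Ccr4 lies at 6.65 and 6.68, and the next largest value is 0.94 (Gm9888).

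In the comparisons that were tested, 4 of 26 genes of the wide window were called in Ago2KO, 5 of 27 in T6B_WT and 7 of 27 in the libraries labelled Ago2KO_empty, of which 2, 1 and 2 were among the 10. These are 15.4%, 18.5% and 25.9%, against 18.0%, 16.0% and 28.8% of all genes. Outside the 10 genes, Gpd1l rose in Ago2KO by 0.27 (SE 0.06, adjusted p = 0.00671) and in T6B_WT by 0.25 (SE 0.08, adjusted p = 0.0330, edgeR), the opposite sign to the Trim71-edited lines. The sense-intronic noncoding gene Gm27002 rose in Ago2KO by 1.01 (adjusted p = 0.0361, edgeR). Fbxl2, an F-box protein gene, fell by 0.47 in T6B_WT (adjusted p = 0.0105) and by 0.37 in the libraries labelled Ago2KO_empty (adjusted p = 0.0288, edgeR). Gm5921 fell by 0.39 in each of these (adjusted p = 0.00178 and 0.00108, edgeR). Ubp1 fell by 0.18 in T6B_WT (adjusted p = 0.0481), and Pdcd6ip, Clasp2 and Tmppe rose in the libraries labelled Ago2KO_empty by 0.36, 0.21 and 0.55 (adjusted p = 0.00374, 0.0271 and 0.0411, edgeR). In Trim71KO and Trim71KO_empty, Fbxl2 had 0.78 (SE 0.15) and 0.28 (SE 0.12), and Ubp1 had 0.27 (SE 0.05) and 0.23 (SE 0.06). The sign was thus opposite for Fbxl2 and Ubp1 as well. Pdcd6ip, Clasp2 and Gm27002 had the same sign in both, and Tmppe and Gm5921 differed in sign between these groups. All changes in this paragraph are log2 fold changes.

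Few other genes of chemokine signalling had a row in the table. Of 22 other chemokine receptors, Cxcr4 and Ackr3 were in it, and neither Ccl17 nor Ccl22 was. Ackr3, a scavenging receptor of Cxcl12, was called higher in Trim71KO with a log2 fold change of 0.56 (SE 0.18), and Cxcr4 had 0.02 (SE 0.20). In Trim71KO_empty neither was called, at 0.42 (SE 0.18) and 0.09 (SE 0.15). Neither was called in Ago2KO, T6B_WT or Ago2KO_empty. Of 8 T lymphocyte markers, Lck and Cd3e were in the table, at 16.0 to 27.7 and 0.0785 to 0.778 CPM. Lck, a T-cell kinase, was lower in both groups in which Ccr4 was high, with log2 fold changes of -0.48 (SE 0.06) in Trim71KO and -0.34 (SE 0.09) in Trim71KO_empty. Cd3e, a subunit of the T-cell receptor complex, had 0.71 (SE 0.44) and 1.08 (SE 0.42), with overlapping libraries. Ptprc, Cd3d, Cd3g, Cd4, Il2ra and Foxp3 had no row, and the table held no gene with fewer than 17 counts over all libraries.

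The genes most like Ccr4 and Trim71 over the libraries were found by Pearson's r of log2 CPM after subtracting each experiment's mean, over 21 libraries and 15999 genes. This is a description, because the libraries fall into groups and share their depth. For Ccr4 they were Plxnb2 (r = 0.985), Eloa (0.982), Mbnl1 (0.982), Elovl7 (0.979) and B3gnt3 (0.975), none of them on chromosome 9. Their log2 fold changes in Trim71KO were 0.78 (Eloa) to 1.82 (Elovl7), far below that of Ccr4. For Trim71 they were Rhd (r = 0.931), Rbpms2 (0.926), Hlcs (0.913), Axin2 (0.902) and Phlda1 (0.893). Of these, Rbpms2 is also on chromosome 9, more than 1000 kb from Trim71, and Hlcs is on chromosome 16. In Trim71KO, Ago2KO, T6B_WT, Trim71KO_empty and the libraries labelled Ago2KO_empty, Rbpms2 changed by -0.51, -0.25, -0.13, -0.26 and 0.01. Hlcs changed by -0.50, -0.27, -0.24, -0.20 and -0.06, beside -0.50, -0.25, -0.20, -0.29 and -0.01 for Trim71.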

How the data were processed

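Total RNA of 21 libraries was read with a stranded kit, per the labels' protocols. The submitters' processing notes name bcl2fastq 2.17, STAR 2.7.3a and the mouse build GRCm38, and use of strand in counting is not given in the sources used here. The authors deposited 1 table of raw read counts per gene and RPKM values for each library, per the file headers. The deposited gene length equalled the exon union of GENCODE M21 for 9 of the 10 genes (not Cnot10) and 98.43% of the table, so M21 on GRCm38 supplied the coordinates.

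Counts were tested with edgeR 4.0.16 in R 4.3.3 (TMM, robust quasi-likelihood, filterByExpr with a minimum count of 10, Benjamini-Hochberg over all genes tested, calls at adjusted p under 0.05), in 1 fit per experiment (21210 and 21505 genes) and 1 fit of all libraries for differences between experiments (22258 genes). All 10 genes passed the filter in every fit. CPM used TMM-scaled totals, and SEs were derived from the fold change and its F statistic. RPKM served only for levels between genes. Replicate pairs differed beyond sampling noise (chi-square per degree of freedom of 3.59 to 80.7 in 21 pairs), and each library was counted as 1 replicate.

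All 10 genes were named. Of the others within 1000 kb, those called in a tested comparison or with a log2 fold change of at least 1 in a Trim71 comparison were named (Osbpl10, Stt3b, Gm9888 and C130032M10Rik are shown or named beside that rule, after their values were seen), with the 5 genes most like Ccr4 and Trim71 and up to 4 called genes per list. The genes and lists were chosen with earlier results of these data known. Alternatives were DESeq2 1.42.0, its size factors in edgeR, no filter, a filter of CPM over 1 in 3 libraries, a replicate block, the 2 groups alone, all libraries in 1 fit, each replicate left out and a window of 250 kb. The procedure was tested on simulated data.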

Additional observations from a re-analysis of the deposited data

How the results depend on the processing

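Of the 814 recomputed log2 values of the 10 genes, 778 were counted as unchanged and 27 changed sign, each for a value not called. A call was lost in 6 and gained in 3, and the cause was not tested. In the tested comparisons, unchanged meant the same direction and side of the threshold. In the 2 Trim71 comparisons it meant a shift smaller than the SD between replicates. Sign changes of values not called there, and calls lost or gained there, are therefore outside these counts. With 1 replicate left out, the log2 fold change of Ccr4 was 6.33 to 7.08 in Trim71KO and 6.57 to 6.76 in Trim71KO_empty. Of the 10 genes, 1 to 2 were then called in Ago2KO, 1 to 2 in the libraries labelled Ago2KO_empty, 1 in T6B_WT, 4 to 5 in each Trim71 comparison, and 0 to 1 differed in the Ago2 effect. Over all genes, 5313 to 7290 were then called in Trim71KO and 4088 to 5832 in Trim71KO_empty, and 269 to 1634 differed in the Ago2 effect. In the wide window, 2 to 4 genes were called in Ago2KO, 2 to 3 in T6B_WT and 3 to 7 in the libraries labelled Ago2KO_empty. Over all genes it was 2566 to 3676, 2045 to 2497 and 3894 to 8083 in these comparisons, so the number called over the whole table moved as well. A window of 250 kb left 2 of 13, 1 of 14 and 3 of 14 tested genes called in these comparisons. These are 15.4%, 7.14% and 21.4%, against 18.0%, 16.0% and 28.8% of all genes. Fitting the T6B groups alone called 2 of the 10 and 10 in the wide window, where 5632 of 20764 genes were called. Fitting all libraries called 2 of the 10 in T6B_WT, where 3996 of 22258 genes were. The main fit called 3437 of 21505 genes in T6B_WT. Sign changes were 0.000743 for Cnot10 and 0.00171 for Cmtm6 in Ago2KO and 0.00461 for Cmtm7 in T6B_WT with CPM over 1, and for Dync1li1 in T6B_WT -0.000246 without a filter and -2.55e-05 with all libraries. With 1 replicate left out, ranges that crossed 0 were, in Ago2KO, -0.0364 to 0.710 for Ccr4 and -0.0273 to 0.0124 for Cmtm6. In T6B_WT they were -0.0623 to 0.0495 for Dync1li1, -0.0535 to 0.0138 for Cmtm7 and -0.263 to 0.301 for Cmtm8. In Ago2KO_empty they were -0.141 to 0.0659 for Trim71 and -0.217 to 0.316 for Cmtm8. For the difference in Ago2 effects they were -0.00546 to 0.0576 for Cnot10, -0.125 to 0.0217 for Crtap and -0.0529 to 0.0577 for Dync1li1. In Trim71KO they were -0.133 to 0.194 for Susd5 and -0.00135 to 0.0248 for Cnot10. In Trim71KO_empty they were -0.0239 to 0.0167 for Cnot10, -0.0108 to 0.0479 for Glb1 and -0.00875 to 0.527 for Cmtm8. Same-numbered replicates deviated together about as much as others. In Experiment 1, r was -0.21 to 0.22 (median 0.03) for the same number and -0.26 to 0.19 (median -0.02) for others. In Experiment 2 it was -0.17 to 0.17 (median 0.0044) and -0.16 to 0.23 (median 0.0094). With 3 libraries a group, this check cannot exclude that the numbers pair samples. With the replicate block, 2, 2 and 1 of the 10 were called in Ago2KO, the libraries labelled Ago2KO_empty and T6B_WT, and 6 and 4 in the Trim71 comparisons, as without it. At 8 to 39 counts, changes of Cmtm8 and of Ccr4 outside the Trim71-edited lines are limited by depth.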

Other observations

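The genes that work with the neighbours of Trim71 were described through lists, as counts and medians of log2 fold changes. Of the 10 other CCR4-NOT subunits, 1 was called in Ago2KO (Cnot6l, a catalytic deadenylase, 0.52, adjusted p = 0.00839 in edgeR), 0 in T6B_WT and 3 in the libraries labelled Ago2KO_empty, with list medians of 0.07, 0.03 and 0.17 beside -0.0029, 0.0066 and 0.03 over all genes. Over all genes tested, 18.0%, 16.0% and 28.8% were called in these comparisons. In Ago2KO_empty, Cnot6l rose by 0.90 (adjusted p = 0.0138) and Cnot4, a ubiquitin ligase, by 0.38 (adjusted p = 0.00472), while Cnot9 fell by 0.18 (adjusted p = 0.0397, edgeR). In T6B_WT, Cnot6l was higher by 0.54 with an adjusted p of 0.140 in edgeR. Cnot10 itself was not called in any comparison. In Trim71KO, 4 of the 10 were called, with Cnot1 at 0.38, Cnot6l at 0.42, Cnot7 at 0.35 and Cnot9 at -0.25, against 32.6% of all genes. In Trim71KO_empty, 2 of the 10 were called against 27.8% of all genes, with Cnot7 at 0.21 and Cnot9 at -0.34, and Cnot1 and Cnot6l stood at 0.14 and 0.06 and were not called.

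Of the 9 other cytoplasmic dynein subunits in the table, 2 were called in Ago2KO, 1 in T6B_WT and 2 in the libraries labelled Ago2KO_empty. These are 22.2%, 11.1% and 22.2%, near the shares of 18.0%, 16.0% and 28.8% over all genes. The light chain gene Dynll2 rose in all 3, by 0.52 (adjusted p = 0.00102), 0.71 (adjusted p = 9.67e-05) and 0.63 (adjusted p = 1.89e-04, edgeR), of which T6B_WT and Ago2KO_empty share their controls. Dync1li2, the close relative of Dync1li1, rose by 0.36 in Ago2KO (adjusted p = 1.57e-04) and 0.20 in the libraries labelled Ago2KO_empty (adjusted p = 0.0165, edgeR). The list medians were 0.0081, 0.07 and 0.02. In Trim71KO, 5 of the 9 (55.6%) were called, 4 higher and 1 lower, against 32.6% of all genes. Trim71KO_empty had 2 of the 9 called (22.2%), against 27.8%. Dync1i1 at 0.96 and 1.08 and Dynlt3 at 0.57 and 0.87 were called in both, as a description only. Of 5 partners of the neighbours, 1 was called in Ago2KO, 0 in T6B_WT and 1 in the libraries labelled Ago2KO_empty, against the same shares of all genes. P3h1, which forms a complex with Crtap, rose by 0.27 in Ago2KO (adjusted p = 0.0192), and Neu1, a lysosomal sialidase that binds Glb1 through Ctsa, fell by 0.25 in the libraries labelled Ago2KO_empty (adjusted p = 0.0317, edgeR). In Trim71KO, 2 of the 5 were called against 32.6% of all genes, Neu1 at -0.22 and Ppib at -0.17. In Trim71KO_empty, 2 of the 5 were called against 27.8%, Neu1 at -0.24 and Ctsa at 0.39. Cd274, whose product Cmtm6 stabilises, was not called in any comparison. Of 7 CMTM family genes outside the cluster, Cklf, Cmtm3 and Cmtm4 were in the table. None of them was called in Ago2KO, T6B_WT or the libraries labelled Ago2KO_empty, at adjusted p of 0.173 to 0.964 (edgeR). In Trim71KO, Cmtm3 at 0.85 and Cmtm4 at 0.35 were called, against 32.6% of all genes. In Trim71KO_empty, Cmtm3 at 0.54 was called and Cmtm4 at 0.12 was not, against 27.8%.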
